A study of Mus musculus with 4 samples.

Results

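Striated muscle genes encode the contractile proteins and the energy enzyme of skeletal and heart muscle, and 10 of them were followed by name through mRNA-seq of cultured mouse aortic vascular smooth muscle cells (VSMCs): *Myh1*, *Myh2*, *Myh4*, *Myh6*, *Myh7*, *Acta1*, *Actc1*, *Ckm*, *Tnnt3* and *Mylpf*. The table holds 48587 gene symbols, of which 29127 had a count, and all 10 genes were in it. The group was chosen from the counts of *Myh4* and *Myh6*, which sat almost entirely in 1 control library. Their values are therefore a description, and the question put to the other 8 genes was whether they had the same distribution.

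Primary VSMCs were grown out of the descending aorta of adult wild-type C57BL/6J mice and transduced with a lentivirus. The shCTR group received a nontargeting hairpin directed against a plant microRNA, and the shMettl14 group a hairpin against *Mettl14*, a subunit of the enzyme that writes N6-methyladenosine on RNA. Each group has 2 libraries, lettered A and B, and nothing states that they came from separate animals or cultures, so that any p-value measures only the spread between these libraries. The adventitia had been stripped with elastase and collagenase and the endothelium scraped off before the cells grew out.

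Skeletal and heart muscle contract through sarcomeres, in which thick filaments of myosin heavy and light chains pull on thin filaments of actin, tropomyosin and troponin. Each muscle type uses its own set of these proteins. *Myh4*, *Myh1* and *Myh2* encode the myosin heavy chains of fast skeletal fibres, *Myh6* the alpha chain of the adult mouse heart, and *Myh7* the beta chain of slow fibres and the fetal heart. *Acta1* and *Actc1* encode the skeletal and cardiac actins, *Tnnt3* fast troponin T, *Mylpf* the fast regulatory light chain, and *Ckm* the muscle creatine kinase that regenerates ATP. Smooth muscle has no sarcomeres and uses *Myh11* and *Acta2*, with the nonmuscle chains *Myh9* and *Myh10*.

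The libraries held between 114343653 and 124815868 counts, so that a count of 0 allows up to 3 counts, or at most 0.0262 CPM, the library-size-scaled count, before TMM scaling. CPM below were scaled by edgeR's TMM factors, which lay between 0.945 and 1.04, and folds against a library at 0 use 3 counts scaled in the same way. Genes with a count numbered 25268 in shCTR A, 21736 in shCTR B, 25117 in shMettl14 A and 24570 in shMettl14 B. Counts of 0 were thus most frequent in shCTR B. *Mettl14* had 2050 and 2154 counts in shCTR A and B and 546 and 568 in shMettl14 A and B, so both shMettl14 libraries were below both shCTR libraries. Smooth muscle markers were abundant, with *Acta2* at 257838 to 402838 counts, but the endothelial markers were abundant too, with *Pecam1* at 54175 to 88586 counts. The 8 endothelial markers summed to between 1811 and 4067 CPM, against 4591 to 7028 CPM for 10 smooth muscle markers. In bulk RNA, a smaller number of cells of one type cannot be told apart from less RNA in each of them.

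The fast and cardiac myosin genes are near copies of each other, which bears on how a read can be given to 1 of them. Over the coding sequence *Myh4* shared 90.1% of aligned bases with *Myh1*, 88.2% with *Myh2*, 87.9% with the perinatal chain *Myh8*, 77.5% with *Myh6* and 77.2% with *Myh7*. Shown here are the 60 bases, within 1 coding exon of every gene, where *Myh4* is most like the others, from the GENCODE M21 transcripts (GRCm38) and read 5′ to 3′ on the coding strand. Capitals mark bases that differ from *Myh4*, and *Myh8* has 0 such bases and *Myh1* has 2. They lie at chr11:67258841-67258900 (plus strand) for *Myh4*, chr11:67221528-67221587 (plus strand) for *Myh1*, chr11:67194571-67194630 (plus strand) for *Myh2*, chr11:67305850-67305909 (plus strand) for *Myh8*, chr14:54944479-54944538 (minus strand) for *Myh6* and chr14:54972889-54972948 (minus strand) for *Myh7*.
Myh4: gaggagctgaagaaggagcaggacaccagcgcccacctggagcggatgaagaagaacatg
Myh1: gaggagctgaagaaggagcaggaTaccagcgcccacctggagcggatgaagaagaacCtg
Myh2: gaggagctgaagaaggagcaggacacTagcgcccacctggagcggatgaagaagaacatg
Myh8: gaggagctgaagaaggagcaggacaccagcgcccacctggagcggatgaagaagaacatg
Myh6: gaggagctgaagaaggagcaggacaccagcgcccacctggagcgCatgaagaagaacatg
Myh7: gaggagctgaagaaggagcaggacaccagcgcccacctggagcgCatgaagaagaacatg

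The study's text does not say how reads that match several genes were counted. Of all 50-base windows of the longest coding transcript, 18.9% of those of *Myh4* occurred word for word in a transcript of another gene, as did 26.7% for *Myh1*, 26.9% for *Myh2*, 22.6% for *Myh6* and 22.2% for *Myh7*. With 100-base windows these shares were 3.85%, 9.73%, 9.17%, 11.4% and 11.2%. The split of counts between *Myh1*, *Myh2* and *Myh4*, and between *Myh6* and *Myh7*, is therefore uncertain to that extent, whereas most windows of each gene were its own. *Actc1*, *Ckm*, *Tnnt3* and *Mylpf* shared 0% of their 50-base windows with any other gene.

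The skeletal and smooth muscle actins are another set of near copies, and the smooth muscle actin is far more abundant here. *Acta1* shared 86.3% of its coding bases with *Actc1*, 85.4% with *Acta2* and 85.2% with the enteric smooth muscle actin *Actg2*. Of the 50-base windows of *Acta1*, 2.22% occurred in another gene, among them *Actb*, and none occurred in *Acta2*, *Actc1* or *Actg2*.

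*Myh4* (ENSMUSG00000057003) lies on chromosome 11 of GRCm38, on the plus strand, from 67238029 to 67260446. It had 625 counts in shCTR A, 30 in shCTR B and 0 in each shMettl14 library. *Myh6* (ENSMUSG00000040752; chromosome 14, minus strand, 54941921 to 54966927) had 470 counts in shCTR A and 0 in the other 3 libraries. Both are the genes that chose the group, so these counts carry no test. For *Myh4*, 95.4% of its counts were in shCTR A (95% Wilson interval 93.5 to 96.8%), and for *Myh6* 100% (99.2 to 100%), where the intervals cover counting error only.

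The level of *Myh4* was 19.8 times as high in shCTR A as in shCTR B, the other control library. *Myh6* was at least 149-fold higher in shCTR A than in any other library, counting 3 counts as the level of a library at 0. Set against shMettl14 at that same floor of 3 counts per library, the shCTR mean of *Myh4* was at least 120-fold higher, although its SD of 3.69 CPM exceeded the mean of 2.89 CPM (n = 2). The shCTR mean of *Myh6* was 2.07 ± 2.93 CPM (SD, n = 2), at least 85.6-fold above the floor, and 1 library made all of it.

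*Ckm* (ENSMUSG00000030399; chromosome 7, plus strand, 19404776 to 19422841) had 156 counts in shCTR A, 13 in shCTR B, 0 in shMettl14 A and 4 in shMettl14 B. Both shMettl14 libraries were below both shCTR libraries, and 90.2% of its counts (84.8 to 93.8%) were in shCTR A. A gene on the opposite strand, *A930016O22Rik*, covers 15.5% of its exon bases, and whether counting used strand is not given.

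*Myh1* (ENSMUSG00000056328, chromosome 11 from 67200052 to 67224575) had 82 counts in shCTR A, 0 in shCTR B, 11 in shMettl14 A and 5 in shMettl14 B. *Myh2* (ENSMUSG00000033196, chromosome 11 from 67171027 to 67197517) had 35, 0, 7 and 2 counts in the same order. For both genes shCTR A was the highest library and shCTR B the lowest, so the groups overlapped. *Myh4* lies beside *Myh1* in the same gene cluster. Of the developmental chains of that cluster, perinatal *Myh8* had 0 counts in every library and embryonic *Myh3* had 2, 0, 0 and 1. Antisense genes cover 8.11% of the exon bases of *Myh1*, 3.32% of those of *Myh2* and 1.69% of those of *Myh6*.

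*Tnnt3* (ENSMUSG00000061723, chromosome 7 from 142498836 to 142516009) had 382 counts in shCTR A, 65 in shCTR B, 88 in shMettl14 A and 70 in shMettl14 B. The level in shCTR A was 4.54 times that of the next library, and the other 3 libraries lay between 0.538 and 0.741 CPM with the groups overlapping. *Mylpf* (ENSMUSG00000030672, chromosome 7 from 127208890 to 127214298) had 157, 72, 94 and 74 counts in shCTR A, shCTR B, shMettl14 A and shMettl14 B, and shCTR A was 1.75 times the next library. Troponin T and the light chain thus had their highest level in shCTR A as well, but had at least 65 counts in every library.

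*Actc1* (ENSMUSG00000068614; chromosome 2, minus strand, 114047282 to 114053548) had 103 counts in shCTR A, 39 in shCTR B, 4 in shMettl14 A and 20 in shMettl14 B. Both shMettl14 libraries were below both shCTR libraries, and shCTR A held 62.0% of the counts (54.5 to 69.1%).

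*Acta1* (ENSMUSG00000031972; chromosome 8, minus strand, 123891769 to 123894751) had 1774, 1700, 1228 and 2382 counts in shCTR A, shCTR B, shMettl14 A and shMettl14 B. Its 2 shCTR libraries were almost equal, at 15.6 and 15.7 CPM, and lay between the shMettl14 libraries at 10.3 and 18.3 CPM. *Myh7* (ENSMUSG00000053093; chromosome 14, minus strand, 54970684 to 54994626) had 15, 10, 6 and 22 counts in that order, with shMettl14 B the highest, and antisense genes, among them *Mhrt*, cover 13.3% of its exon bases. Neither gene stood out in shCTR A.

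**Figure D1:**
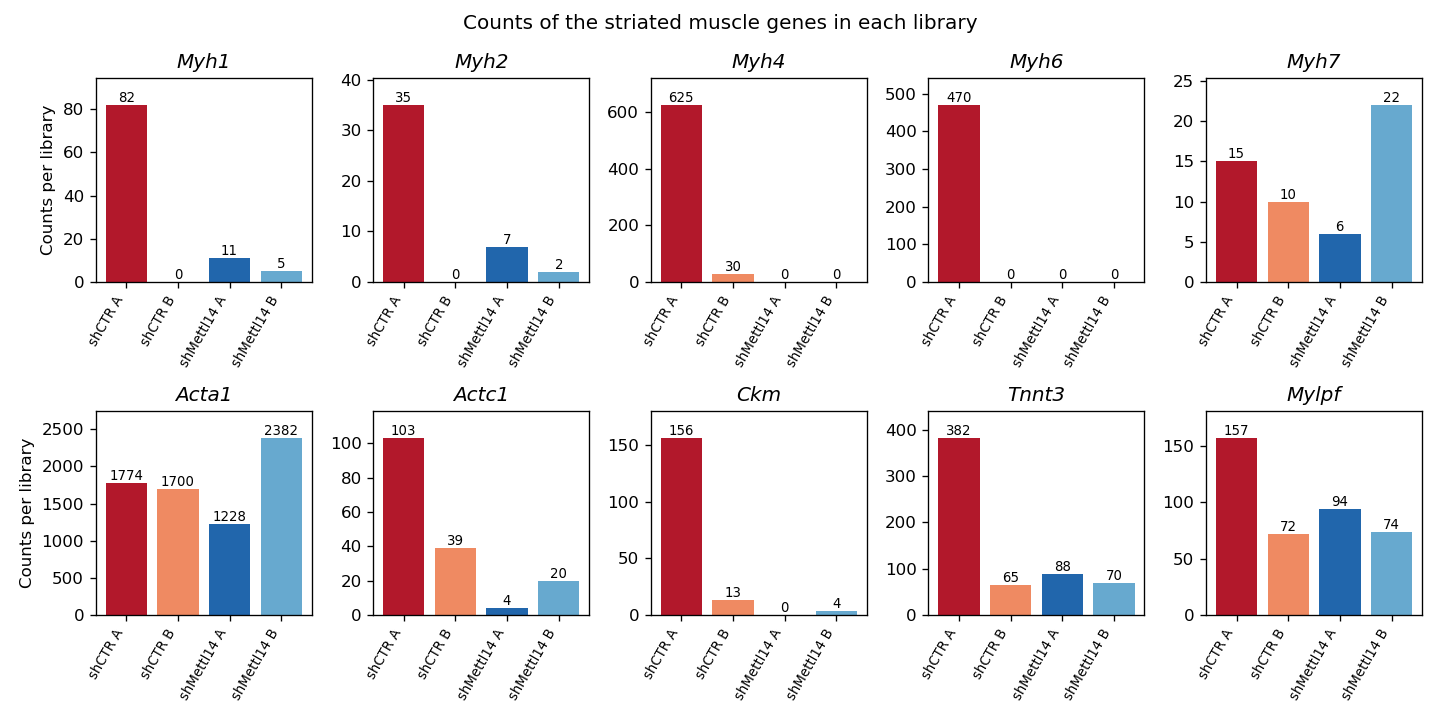
Deposited counts of each of the 10 genes (y axis, counts per library, starting at 0 and scaled for each gene) in the 4 libraries (x axis), with the count printed over each bar. *Myh6* has 470 counts in shCTR A and 0 elsewhere, whereas *Acta1* has between 1228 and 2382 in every library.

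The highest level was in shCTR A for 8 of the 10 genes, against 27.2% of the 23003 genes with at least 10 counts in all, and 24.0% of the 10325 genes whose total lay within the range of these 10, from 44 to 7084 counts. Without *Myh4* and *Myh6*, which chose the group, it was 6 of 8. More than 50% of the summed CPM was in shCTR A for 7 of the 10 genes and for 5 of those 8, against 2.53% of genes in that range of counts. The median share in shCTR A was 72.3% for the 10 genes and 63.2% for the 8, and 24.0% for all genes in that range. At a stricter limit, 3 of the 7 genes with at least 100 counts had at least 90% of their CPM in shCTR A (*Myh4*, *Myh6* and *Ckm*), against 0.180% of the 16108 genes with that many counts. Without the 2 genes that chose the group it was 1 of 5, *Ckm* alone.

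**Figure D2:**
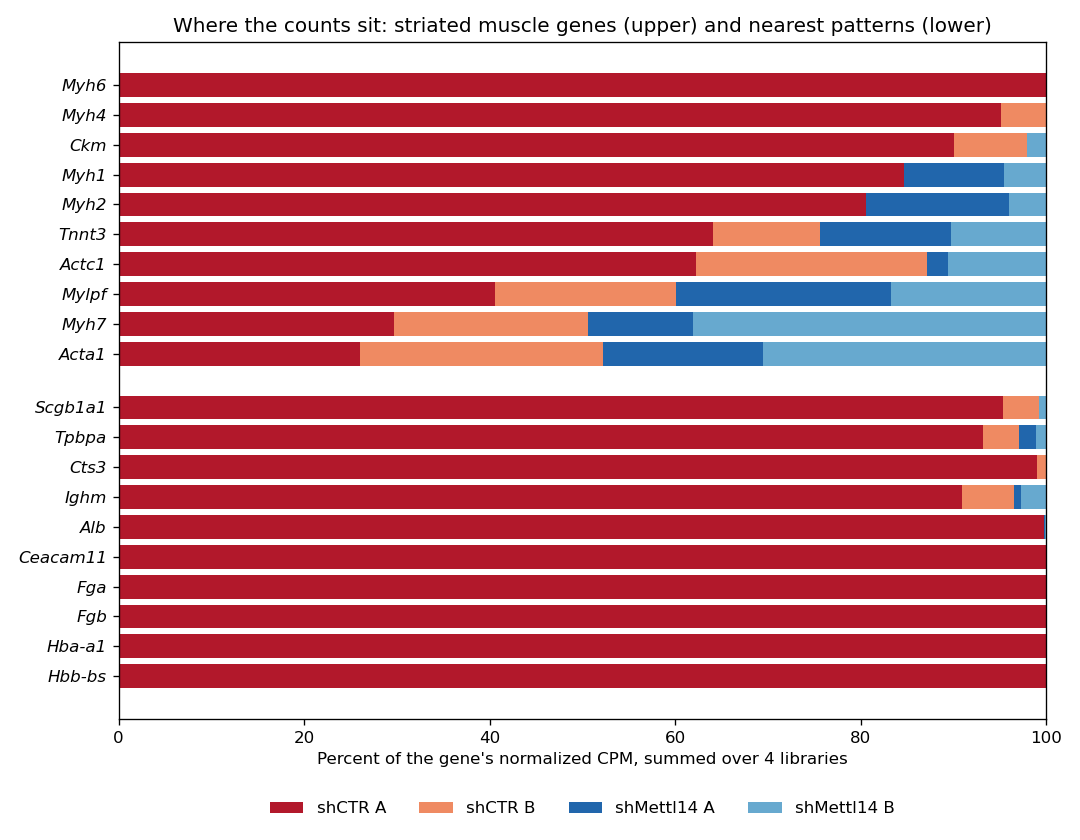
Percent of each gene's normalized CPM, summed over the 4 libraries, that fell in each library (x axis), for the 10 striated muscle genes (upper bars) and the genes nearest in pattern to *Myh4* and *Myh6* (lower bars). The share of shCTR A runs from 26.02% for *Acta1* to 100% for *Myh6*, and it is at least 90.9% for all 10 of the nearest genes.

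Among genes with at least 100 counts, the 5 named here as nearest to *Myh4* and the 5 nearest to *Myh6* were not muscle genes. Below that limit, the muscle light chains *Myl1* and *Myl3* also had every count in shCTR A, with 67 and 53. Likeness was measured over the 4 libraries as 0.5 times the sum of the absolute differences in CPM shares, among genes with at least 100 counts. Nearest to *Myh4* were *Scgb1a1*, the club cell secretory protein of the lung (distance 0.0101, with 317, 12, 0 and 3 counts in shCTR A, shCTR B, shMettl14 A and shMettl14 B), and *Tpbpa*, a trophoblast marker of the placenta (0.0289, with 298, 12, 6 and 4 counts). *Cts3*, a placental cathepsin, followed with 103 counts in shCTR A and 1 elsewhere. *Ighm*, the immunoglobulin mu chain, had 118 counts in shCTR A and at most 7 in another library. *Alb*, the serum albumin made by the liver, had 1345 counts in shCTR A, 0 in shCTR B, 1 in shMettl14 A and 2 in shMettl14 B. Of the 10 muscle genes only *Acta1* had more in shCTR A. At a distance of 0.0481 from *Myh4*, *Alb* was tied with other genes at 0 in shCTR B, *Myh6* among them.

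The genes at distance 0 from *Myh6*, with every count in shCTR A, were tied and are named in alphabetical order. They included *Ceacam11* with 143 counts, the fibrinogen chains *Fga* and *Fgb* of the liver with 191 and 132, and the adult globins *Hba-a1* and *Hbb-bs* of red blood cells with 107 and 140. All 29 genes with at least 90% of their CPM in 1 library, among those with at least 100 counts, had it in shCTR A, and 14 of them had 0 counts in the other 3 libraries. Together they took 6597 counts, or 0.00569% of shCTR A, and 76, 35 and 37 counts in shCTR B, shMettl14 A and shMettl14 B. The counts do not show whether these transcripts, those of *Myh4* and *Myh6* included, came from the cultured cells, and this was not tested.

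Lists of muscle genes beyond the 10 gave the same picture in part. Of 48 other genes of the fast skeletal, slow or shared striated, and cardiac lists, 44 had at least 10 counts, and 37 of these were highest in shCTR A, against 27.2% of all genes with that many counts. More than 50% of the CPM was in shCTR A for 20 of the 44, against 3.93%. These lists were drawn up with earlier results of these data known. In shCTR A the 48 genes summed to 93.9 CPM, and in the other libraries to between 55.5 and 62.6 CPM. Of these sums, *Eno3* of the fast skeletal list alone gave 20.9 CPM in shCTR A and 5.19 to 9.26 CPM in the other libraries.

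Among direct partners of the 10 genes, the fast light chain *Myl1* had 67 counts and the ventricular light chain *Myl3* 53 counts in shCTR A, and both had 0 elsewhere. *Myl2*, the slow and ventricular regulatory light chain, had 139, 8, 31 and 16 counts. Fast troponin I, *Tnni2*, had 88 counts in shCTR A, 0 in shCTR B, 7 in shMettl14 A and 0 in shMettl14 B. These 4 genes were each highest in shCTR A. Other troponin chains differed less between libraries. Cardiac *Tnnt2* had 962, 1069, 496 and 840 counts and was highest in shCTR B. *Tnnt1* had 36, 30, 18 and 22 counts, *Tnni1* 62, 24, 40 and 64, and *Tnni3* 296, 191, 222 and 127. In these, shCTR A was 1.14, 1.11 and 1.39 times the next library. Myoglobin, *Mb*, the oxygen store of red fibres, had 141, 0, 8 and 3 counts, and *Atp2a1*, the calcium pump of fast fibres, had 354, 54, 29 and 43, with 21.9% of its exon bases covered by *Rabep2* on the opposite strand. Fast troponin C, *Tnnc2*, was at 0 in all 4 libraries, and 74.0% of its exon bases overlap *Ube2c* on the other strand.

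Some muscle genes were spread more evenly. *Tnnc1*, slow and cardiac troponin C, had 529, 459, 459 and 507 counts in shCTR A, shCTR B, shMettl14 A and shMettl14 B, and the atrial light chain *Myl4* had 518, 524, 518 and 607. Nebulin, *Neb*, had 456, 341, 464 and 363 counts. The share held by shCTR A was 27.9% for *Tnnc1*, 24.7% for *Myl4* and 28.9% for *Neb*, close to the median of 24.6% over all genes with at least 10 counts.

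A further set followed the letter and not the hairpin. The cardiac transcription factor gene *Gata4* had 297 and 248 counts in the A libraries of shCTR and shMettl14 and 2 and 16 in the B libraries. *Hand2*, another cardiac factor, had 217 and 189 counts in A and 83 and 50 in B, and the natriuretic peptide gene *Nppb* had 474 and 404 in A and 73 and 73 in B. *Myoz2*, a Z-disc protein of slow and heart muscle, went the other way, with 74 and 44 counts in A and 725 and 893 in B. The 2 libraries of a letter were thus alike for these genes, unlike for *Myh4* or *Myh6*.

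Of the factors that commit cells to skeletal muscle, 4 were at or near 0. *Myod1* and *Myog* had 0 counts in every library, *Myf5* had 5 counts in shMettl14 B only, and *Myf6* had 5 in shCTR A only. The satellite cell factor *Pax7* had 2 counts in shMettl14 B and 0 elsewhere. *Pax3*, which acts in muscle precursors, had 16, 119, 12 and 194 counts in shCTR A, shCTR B, shMettl14 A and shMettl14 B, and *Mef2c*, which also acts in other cell types, had 959, 2427, 868 and 3082, so both were higher in the B libraries. Of the cardiac factors, *Nkx2-5* had 5, 0, 1 and 5 counts and *Tbx5* had 4, 0, 0 and 0, whereas *Tbx20* had 1166, 1223, 1305 and 1734. In the list of myogenic regulators and embryonic muscle genes, 6 of the 14 in the table had at least 10 counts and 0 of these were highest in shCTR A.

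Lists of cell types and organs were read the same way, and were also drawn up with earlier results of these data known. The erythroid list holds *Hba-a1* and *Hbb-bs*, and the organ list *Alb*, *Ttr* and *Sftpc*, each with at least 90% of its CPM in shCTR A. The counts for these lists are therefore a description. The erythroid list had 4 of 5 genes highest in shCTR A and summed to 2.83 CPM there and at most 0.324 CPM elsewhere. The list of liver and other organs had 5 of 6 genes highest in shCTR A and summed to 16.6 CPM there and at most 3.74 CPM elsewhere. The leukocyte list had 5 of 6 genes highest in shCTR A, at 15.3 CPM against 11.1 to 11.8 CPM. Against the 27.2% of all genes, the endothelial list had 1 of 8 genes highest in shCTR A, the adipocyte list 0 of 3 and the mesothelial list 1 of 4. The fibroblast and Schwann cell lists had 3 of 7 each, and the smooth muscle list 5 of 10. The part of any of these sources in the muscle counts was not tested.

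**Figure D3:**
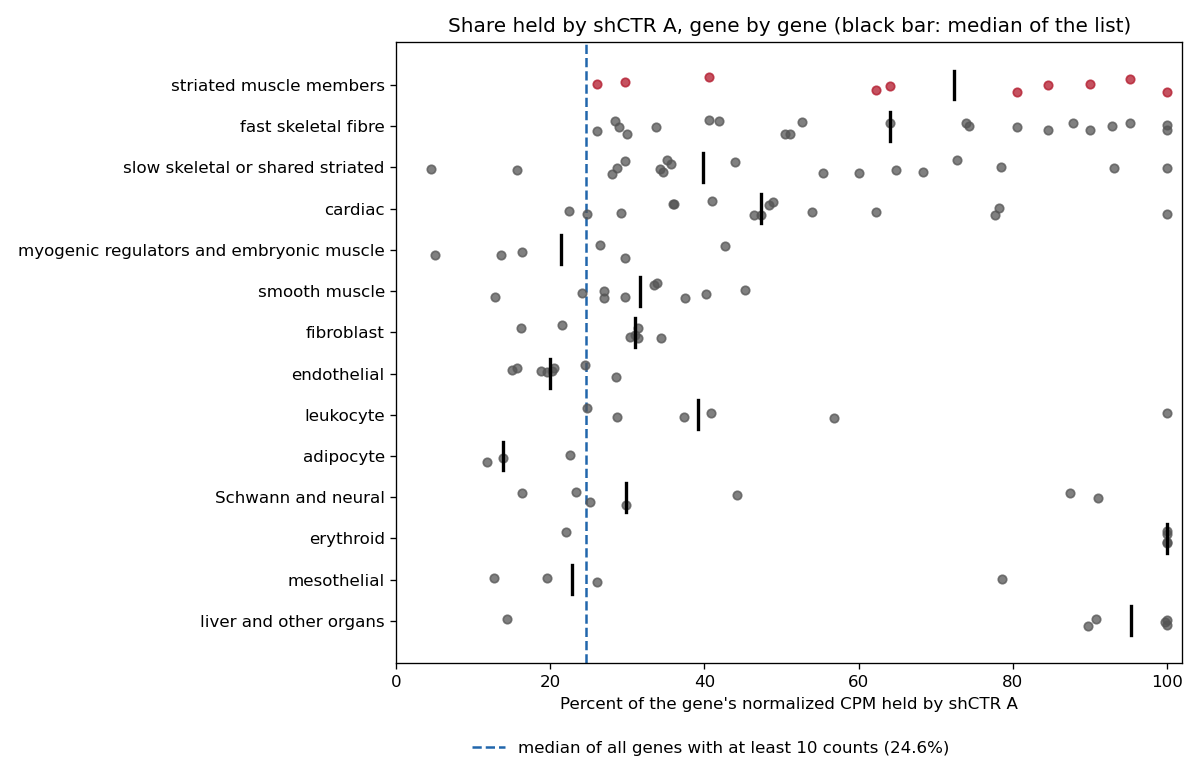
Share of each gene's normalized CPM held by shCTR A (x axis, percent), for genes with at least 10 counts, with 1 row per list, a point per gene and a black bar at the list's median. The members' median of 72.3% lies right of the dashed line at 24.6%, the median of all genes, while the median of the myogenic regulator list is 21.4%.

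On a scale of CPM per kilobase of exon, which allows levels of different genes to be compared, the myosin heavy chains and actins among the 10 genes were below the smooth muscle actin *Acta2* and the nonmuscle chain *Myh9*. In shCTR A the order was *Acta1* (10.2), *Tnnt3* (2.12), *Mylpf* (1.30), *Myh4* (0.914), *Myh6* (0.615), *Actc1* (0.560), *Ckm* (0.471), *Myh1* (0.114), *Myh2* (0.0432) and *Myh7* (0.0153). *Acta1* led in every library, at 6.73 to 11.9 CPM per kilobase. Between libraries the lower ranks did not hold, since *Myh4* and *Myh6* were at 0 in both shMettl14 libraries and *Mylpf* was above *Tnnt3* in the 3 libraries other than shCTR A. In the order of the shCTR means, only *Acta1* differed from its next neighbour by more than the larger SD of the pair.

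The smooth muscle heavy chain *Myh11* reached 9.86 to 44.5 CPM per kilobase, and the nonmuscle chain *Myh9* 193 to 271. *Acta2* stood at 944 to 1615 CPM per kilobase, against 0.0208 to 0.560 for *Actc1*. Even in shCTR A, *Myh4* and *Myh6* were therefore far below *Myh11* on this scale. *Myh11* itself was higher in the A libraries, with 38434 and 27650 counts in shCTR A and shMettl14 A and 10869 and 9749 in the B libraries.

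**Figure D4:**
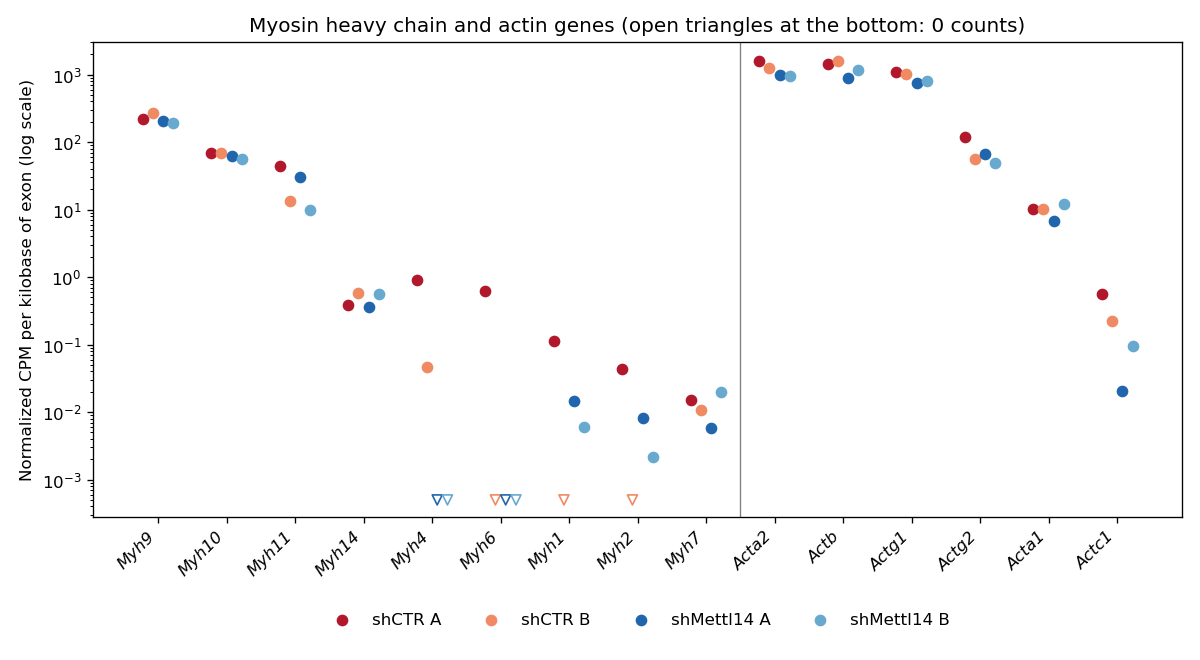
Levels of myosin heavy chain genes (left) and actin genes (right) in the 4 libraries as normalized CPM per kilobase of exon (y axis, log scale), with a point per library and open triangles for 0 counts. *Myh9* lies at 193 to 271 in every library, whereas *Myh4* is at 0.914 in shCTR A, 0.0462 in shCTR B and 0 with shMettl14.

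The comparison of shMettl14 with shCTR used edgeR's quasi-likelihood test over the 18916 genes that passed its low-count filter, of which 0 (0%) had an adjusted p under 0.05 and 315 an unadjusted p under 0.05. Of the 10 genes, 8 passed the filter. *Myh2* and *Myh6* did not, as the filter asks for enough counts in 2 libraries, and a gene that is high in 1 library alone can fail it. None of the 8 had an adjusted p under 0.05 in edgeR. This test did not call *Mettl14*, the target of the hairpin, either, so a missing call does not show that a gene was unchanged. At an unadjusted p under 0.05, 3 of the 8 (*Myh4*, *Actc1* and *Ckm*) were lower with shMettl14, against 1.01% of all genes, and since the group was chosen from this contrast nothing is read from that count. These 3 were also the genes of the 10 with both shMettl14 libraries below both shCTR libraries, against 13.2% of genes with at least 10 counts. Without *Myh4* and *Myh6* it was 2 of 8, and nothing is read from either count. By the same test with shCTR A left out, 1 of the 8 tested members was lower at an unadjusted p under 0.05, where the background was 2.08% of 20278 genes. That member was *Myh4*, whose counts chose the group. Of the other 7, *Actc1*, *Ckm* and *Acta1* were fitted lower without shCTR A, at log2 fold changes of −1.92, −2.85 and −0.13. *Myh1*, *Myh7*, *Tnnt3* and *Mylpf* were fitted higher.

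For *Actc1* the mean was 0.634 ± 0.386 CPM with shCTR and 0.0937 ± 0.0849 with shMettl14 (SD, n = 2), and edgeR fitted a log2 fold change of −2.74 ± 0.96 (standard error). With 1 library left out it ranged from −4.19 (without shMettl14 B) to −1.92 (without shCTR A), and the within-letter log2 ratios were −4.75 for A and −1.23 for B. The mean of *Ckm* was 0.747 ± 0.886 CPM with shCTR and 0.0154 ± 0.0217 with shMettl14 (SD, n = 2), with a log2 fold change of −5.47 (standard error 1.74). It was −2.85 without shCTR A, and −9.41 without shMettl14 B, where the group is at 0 and the value depends on the prior count. In both genes shCTR B alone was still above both shMettl14 libraries.

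*Tnnt3* differed by −1.63 ± 0.87 on the log2 scale (standard error), and by 0.092 without shCTR A. *Mylpf* went from −0.59 (standard error 0.54) to 0.033 in the same way. The fitted direction of both turned without shCTR A, while the within-letter log2 ratios were −2.18 for A and −0.16 for B in *Tnnt3*, and −0.80 and −0.23 in *Mylpf*. *Acta1* differed by −0.13 (standard error 0.34), with within-letter log2 ratios of −0.59 for A and 0.22 for B, and *Myh7* by −0.03 (standard error 0.96), with −1.39 and 0.87. *Tnnt3* had a mean of 1.98 ± 1.95 CPM with shCTR and 0.639 ± 0.143 CPM with shMettl14 (SD, n = 2). In mean CPM, the differences of *Tnnt3*, *Mylpf*, *Acta1* and *Myh7* were smaller than the larger group SD, as was that of *Ckm*.

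**Figure D5:**
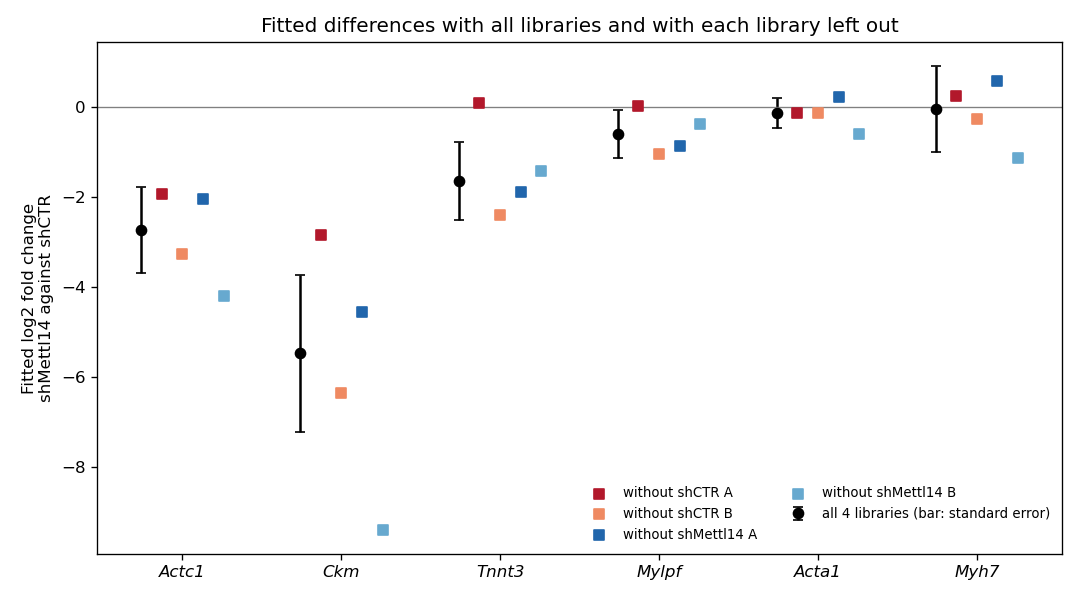
Fitted log2 fold change of shMettl14 against shCTR (y axis) for 6 of the genes, with all 4 libraries (black, bar for the standard error) and with each library left out in turn (colored squares). *Tnnt3* moves from −1.63 to 0.092 without shCTR A; the lowest *Ckm* square compares with 1 shMettl14 library at 0 counts and depends on the fit's prior count.

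Of the 48 other genes of the 3 muscle lists, 32 were tested by edgeR, 0 had an adjusted p under 0.05, and 6 were lower and 0 higher at an unadjusted p under 0.05, against 1.01% of all genes lower. Their median log2 fold change was −0.66. The lists were drawn up with earlier results of these data known, and a gene can pass the filter through its shCTR libraries alone. Nothing is therefore read from that count or that median. Without shCTR A, 31 of the 48 genes were tested and 1 was lower, a share near the background of 2.08%. The gene was *Actn3*, the alpha-actinin of fast-fibre Z-discs, which had 309 and 235 counts in shCTR A and B and 89 and 110 counts in shMettl14 A and B. Its level was 2.45 ± 0.385 CPM with shCTR and 0.797 ± 0.0680 CPM with shMettl14 (SD, n = 2), which edgeR fitted as −1.62 ± 0.39 on the log2 scale (standard error). Its unadjusted p of 0.0093 did not hold after adjustment over all genes (adjusted p = 0.99997, edgeR). *Actn3* was therefore lower in both shMettl14 libraries than in either control, with shCTR A holding 41.9% of its CPM.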

How the data were processed

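The deposited values are read counts per gene symbol for 4 poly-A-enriched, strand-specific libraries, without normalization. The authors mapped read pairs to mm10 (GRCm38) with STAR and counted with featureCounts, and their versions, the strand setting and the handling of reads with several matches are not given in the sources used here. Depth, TMM-scaled CPM, shares over the 4 libraries and CPM per kilobase of merged exon (GENCODE M21) were computed from these counts in Python 3.11.15. shMettl14 was compared with shCTR by edgeR 4.0.16 (R 4.3.3) with filterByExpr, a robust quasi-likelihood fit without a block and Benjamini-Hochberg adjustment over all genes kept. Each standard error was taken as the size of the log2 difference over the root of its F statistic. The study names DESeq2, which was run as an alternative (version 1.42.0) with RLE factors, other filters, a replicate block and each library left out. Coding sequences were aligned with MAFFT 7.526. The fits and the share step were tested on simulated data. The counts simulated for the fits varied less between libraries than these data and held no letter effect. That test therefore does not cover the spread found here.

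The 10 genes and all lists were chosen with earlier results of these data known. Names were drawn from the 10 genes, list genes with at least 100 counts in a library, direct counterparts of the 10, muscle transcription factors, and the 5 nearest patterns to *Myh4* and to *Myh6*. *Pecam1* and *Acta2* serve as marker checks. *Tnnc2* and its overlap were added after its values were seen. With 2 libraries a group, the smallest two-sided p of an exact permutation test is 0.333. Some items are not reported here.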

Additional observations from a re-analysis of the deposited data

How the results depend on the processing

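Under the alternatives, 89 values of the members' log2 fold changes kept direction and side of the threshold, 7 turned and 4 passed the threshold. The 89 include 10 values each for prior counts of 1 and 5. These shrink the fitted change and leave the p-value as it was, so they are not a separate check. Without shCTR A, *Myh1* turned to 5.98, *Myh2* (fitted without the low-count filter) to 5.18, *Myh7* to 0.25, *Tnnt3* to 0.092 and *Mylpf* to 0.033. The first 2 compare with a control library at 0 counts, so their size depends on the prior count. Without shMettl14 A, *Myh7* turned to 0.59 and *Acta1* to 0.23. *Myh6* could not be fitted without shCTR A, as no count is left.

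Genes past the adjusted threshold numbered 0 in the main comparison, 5 with DESeq2 and between 0 and 1 with 1 library left out, where a lone library is assumed to vary like the other group. Pairing libraries by letter as a replicate block called 9. Of the 10 members the counts were 0 in the main comparison and with any library left out, 1 with DESeq2 (*Myh6*) and 1 with the replicate block (*Myh4*). Fitted without the low-count filter, *Myh6* also passed with the block and without shCTR B, where its counts sit in a lone control library. The letters deviated together (correlation 0.578 across genes), but with 2 pairs and no statement of shared cultures the block was not used for the results. The genes with at least 90% of their CPM in 1 library numbered 29, and 62 with at least 50 counts and 7 with at least 200. With 1 library left out they numbered between 54 and 75, an alternative chosen after seeing the data in which the share is over 3 libraries. Without shCTR A all 54 were in shMettl14 A, and without shMettl14 A all 75 were in shCTR A. Without shCTR B, 32 were in shCTR A and 36 in shMettl14 B. Without shMettl14 B, 30 were in each shCTR library. The cause of these changes was not tested. With 1 library left out, the ranges were −3.45 to 5.98 for *Myh1*, −3.24 to 5.18 for *Myh2*, −1.13 to 0.59 for *Myh7*, −0.60 to 0.23 for *Acta1*, −4.19 to −1.92 for *Actc1*, −9.41 to −2.85 for *Ckm*, −2.40 to 0.092 for *Tnnt3* and −1.03 to 0.033 for *Mylpf*. RLE factors changed no member's direction, and neither did other prior counts, which only shrink the fitted change.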

Other observations

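The 29 genes with at least 90% of their CPM in shCTR A included genes best known from several organs. Besides *Tpbpa* and *Cts3*, placental genes among them included *Psg21*, *Psg16* and *Psg23*, pregnancy-specific glycoproteins with 253, 170 and 171 counts in shCTR A, *Tpbpb* with 167 and the placental lactogen *Prl3b1* with 144. Liver genes among them included *Alb*, *Fga*, *Fgb*, *Ttr*, *Serpina3k* and *Gc*, with 93 to 1345 counts there. *Kap*, a kidney androgen-regulated protein, had 265 counts, and *Sftpc*, a surfactant protein of the lung, had 126. The immunoglobulin light chain *Igkc* had 111 counts, and the epithelial genes *Fcgbp* and *Pigr*, the latter the transporter of polymeric immunoglobulin, had 172 and 140. In the other 3 libraries the largest count of any of the 29 genes was 30, that of *Myh4* in shCTR B. With the limit lowered to 80%, 33 genes were held by shCTR A, 1 by shMettl14 A and 0 by shCTR B or shMettl14 B. These genes were named after their values were seen.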
